A study of Homo sapiens with 6 samples.

Results

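The genes described here are 10 mucins and secretory products of intestinal goblet cells, chosen by symbol: MUC1, MUC2, MUC5AC, MUC5B, MUC13, FCGBP, AGR2, SPDEF, TFF3 and REG4. All 10 of 10 were found among the 56638 gene symbols counted in each library. They were followed in HCT116, a long-established line of human colorectal carcinoma cells, in 3 libraries labelled ZFP90 KO and 3 Control libraries. All cells were of passage 16 to 19 and grown in serum-containing RPMI-1640; for the knockout, guide RNAs were directed at exon 3 of ZFP90, which encodes a KRAB zinc-finger protein. The labels do not say what the Control cells received, whether the knockout cells were 1 clone, or whether libraries of a group came from separate cultures, and the p-values therefore speak only of how much these libraries vary, some of which may be technical.

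Goblet cells cover the gut lining with mucus. Its main polymer in the intestine is the secreted gel-forming mucin MUC2, which is folded in the endoplasmic reticulum with the help of the disulfide isomerase AGR2, packed into granules and released together with FCGBP, which binds to the mucus, and the trefoil peptide TFF3. MUC5AC and MUC5B are gel-forming mucins better known from the stomach and the airways, although colorectal tumours can express MUC5AC. MUC1 and MUC13 are membrane-bound mucins that stay on the apical cell surface. SPDEF is a transcription factor of goblet cell maturation that acts after ATOH1, the factor that commits intestinal cells to the secretory lineage, and REG4 is a secreted lectin.

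Reads in genes numbered 13424356 to 17012910 per library. ZFP90 RNA was higher in the libraries labelled ZFP90 KO, at 86.9, 80.5 and 89.8 CPM (reads of a gene divided by the TMM-scaled size of its library), than in the Control libraries, at 47.5, 47.4 and 43.1 CPM (log2 fold change 0.90, SE 0.066; edgeR adjusted p = 5.1e-05). Whether the edit broke the protein cannot be read from gene counts, so directions are given for the libraries as labelled. On chromosomes 6 to 9, X, Y and the mitochondrial genome, Control replicate 2 stood at 53.3% to 87.6% of the level of the other Control libraries. Among the 10 genes, only SPDEF on chromosome 6 and AGR2 on chromosome 7 lie there; on chromosomes 1, 3, 11, 19 and 21, which hold the others, it stood at 102% to 103%.

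The goblet cell label was not borne out by defining markers in these cells. AGR2 and TFF3 had 0 reads in all 6 libraries, and REG4 had 1 read in all, in replicate 1 labelled ZFP90 KO. These were the 3 genes below 10 reads over the 6 libraries together. On GRCh38, AGR2 lies on chromosome 7 (16791811 to 16833433), TFF3 on chromosome 21 (42311667 to 42315651) and REG4 on chromosome 1 (119794018 to 119811660), all on the minus strand. A count of 0 allows up to 3 reads, that is 0.181 to 0.213 CPM in the libraries labelled ZFP90 KO and 0.185 to 0.224 CPM in the Control libraries; such limits cover counting error only. ATOH1 had 0, 0 and 0 reads in the libraries labelled ZFP90 KO and 0, 0 and 1 in the Control libraries. Of 21 other goblet cell products, 15 had fewer than 10 reads in all. The chloride channel regulator CLCA1, the lectins ZG16 and ITLN1, RETNLB and TFF1 were among 9 at 0 throughout. Over 8 markers of colorectal epithelium the summed level was 2690 to 2810 CPM in the libraries labelled ZFP90 KO and 2710 to 2850 CPM in the Control libraries. The largest part was the keratin KRT8, with means of 1390 CPM in the libraries labelled ZFP90 KO and 1320 CPM in the Control libraries. CDX2 was far lower, at means of 16.2 and 15.6 CPM in the same order, and CEACAM5 and VIL1 had fewer than 10 reads each in all. The keratin KRT18 was called lower (log2 fold change -0.23, edgeR adjusted p = 0.0394).

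SPDEF, the goblet cell transcription factor, on chromosome 6 (34537802 to 34556333, minus strand, GRCh38), had fewer than 10 reads in every library. It had 5, 3 and 3 reads in the libraries labelled ZFP90 KO, against 6, 3 and 1 in the Control libraries. The groups overlapped, and the ratio of 11 to 10 summed reads was 1.07 after scaling (exact 95% counting interval 0.414 to 2.82). It was too low to be tested. A difference in SPDEF was not detectable at this depth.

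The promoters of 3 genes are shown because they stand for the states seen here: FCGBP had the most reads and was higher in the libraries labelled ZFP90 KO, MUC2 was read at a low level, and AGR2 had no read. RefSeq promoter entries matched 7 of the 10 genes, with none for MUC5AC, MUC5B or TFF3. Each sequence is the 250 bases before the RefSeq start, on GRCh38.p14, read along the gene. Capitals mark CAGCTG (an E-box, the same on both strands) and TTTATG or its reverse CATAAA (letters bound by CDX factors).
FCGBP, chr19:39934635-39934884, minus strand: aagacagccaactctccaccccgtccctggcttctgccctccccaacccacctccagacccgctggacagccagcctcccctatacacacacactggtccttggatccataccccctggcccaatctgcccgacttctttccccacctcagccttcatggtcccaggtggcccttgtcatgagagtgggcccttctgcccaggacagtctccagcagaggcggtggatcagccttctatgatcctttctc
MUC2, chr11:1074624-1074873, plus strand: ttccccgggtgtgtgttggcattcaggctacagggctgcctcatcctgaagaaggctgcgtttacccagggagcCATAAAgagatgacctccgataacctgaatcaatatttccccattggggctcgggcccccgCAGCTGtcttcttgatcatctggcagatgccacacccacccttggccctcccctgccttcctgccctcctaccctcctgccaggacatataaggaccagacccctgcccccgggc
AGR2, chr7:16805000-16805249, minus strand: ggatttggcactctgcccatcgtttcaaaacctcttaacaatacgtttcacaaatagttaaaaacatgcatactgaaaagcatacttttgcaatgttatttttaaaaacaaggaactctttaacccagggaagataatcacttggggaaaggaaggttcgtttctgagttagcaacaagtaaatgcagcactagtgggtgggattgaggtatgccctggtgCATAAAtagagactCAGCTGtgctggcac
MUC2 and AGR2 each held 1 E-box and 1 CDX match, whereas FCGBP held neither. None of the 3 held the forkhead letters TGTTTAC or the ETS letters CGGAAGT on either strand. Of the matched genes not shown, MUC1 held the E-box only, REG4 the CDX letters only, and MUC13 and SPDEF none of these letters. Among 35116 RefSeq promoter windows of this length, 14.0% held the E-box, 9.64% the CDX letters, 2.98% the forkhead letters and 5.69% the ETS letters. The windows of FCGBP and MUC2 held 60.8% and 59.6% G or C and that of AGR2 40.4%, where the median window had 58.0%. A match describes letters, not a site in use.

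The remaining 6 genes had enough reads to be tested, and 3 of them, MUC5AC, MUC5B and FCGBP, were called higher in the libraries labelled ZFP90 KO. None was called lower (edgeR quasi-likelihood test, Benjamini-Hochberg adjusted p under 0.05 over 16369 genes); at an unadjusted p under 0.05 it was 1, MUC1, and DESeq2 and limma-voom called 0 lower. Of all genes tested, 9.73% were called higher and 11.4% lower. MUC5AC passed the filter on low counts only through the libraries labelled ZFP90 KO, so the count of 3 in 6 is a description. The median log2 fold change of the 6 was 0.39, and that of all genes tested 0.01. MUC5AC enters the median of the 6 only through that filter, so this median too is a description. Scaled by library size alone, the share of all calls that were higher fell to 29.6%, against 46.1% with TMM, and FCGBP was then not called.

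**Figure D1:**
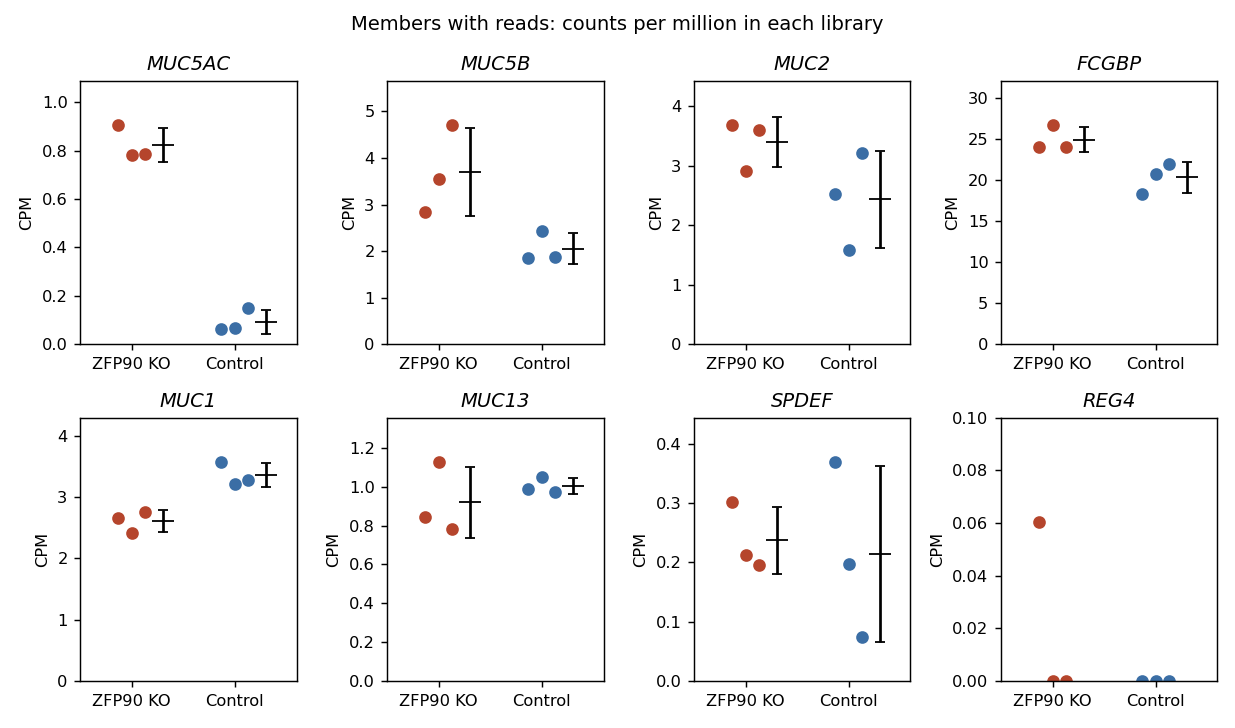
CPM (vertical axes, TMM-scaled) of the 8 genes with any read in each library labelled ZFP90 KO and each Control library; dots are libraries, and bars the mean and SD (n = 3 each; no bar for REG4, with 1 read in all). MUC5AC, MUC5B and FCGBP lie higher in all 3 libraries labelled ZFP90 KO than in any Control library, and MUC1 lies lower.

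MUC5AC, a gel-forming mucin of the gastric surface, had the largest change among the tested members. It had 15, 11 and 12 reads in the libraries labelled ZFP90 KO, against 1, 1 and 2 reads in the Control libraries. These are 0.906, 0.780 and 0.785 CPM in the libraries labelled ZFP90 KO, against 0.0617, 0.0658 and 0.149 CPM in the Control libraries. Every library labelled ZFP90 KO lay above every Control library, and each Control library lay under the level of 3 reads. The fitted log2 fold change was 3.10 (SE 0.425; edgeR adjusted p = 0.00155), a value that depends on the prior count at these depths. The ratio of 38 to 4 summed reads was 9.26 after scaling (exact 95% counting interval 3.34 to 35.7). The call held with each library left out in turn, with log2 fold changes of 2.88 to 3.54 and edgeR adjusted p of 0.00161 to 0.0121. MUC5AC passed the filter on low counts only through the libraries labelled ZFP90 KO, so its call and p-values are a description. Even in the libraries labelled ZFP90 KO it remained a rare RNA.

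MUC5B, the gel-forming mucin next to MUC5AC on the chromosome, had 47, 50 and 72 reads in the libraries labelled ZFP90 KO, against 30, 37 and 25 reads in the Control libraries. The levels were 2.84, 3.55 and 4.71 CPM in the libraries labelled ZFP90 KO, against 1.85, 2.43 and 1.87 CPM in the Control libraries. The groups did not overlap, and replicate 3 labelled ZFP90 KO stood highest. The fold change was 1.79 (log2 0.84, SE 0.235; edgeR adjusted p = 0.0347). This call did not hold without replicate 2 or 3 labelled ZFP90 KO (adjusted p = 0.0773 and 0.119) or without Control replicate 1 or 3 (0.108 and 0.0907). The antisense gene MUC5B-AS1 overlaps it, and the counting strand is not given in the sources used here, so their reads cannot be told apart.

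MUC2, the main mucin of the intestine, had 61, 41 and 55 reads in the libraries labelled ZFP90 KO, against 41, 24 and 43 reads in the Control libraries. Its levels were 3.69, 2.91 and 3.60 CPM in the libraries labelled ZFP90 KO, against 2.53, 1.58 and 3.21 CPM in the Control libraries, and the groups overlapped. The mean was 3.40 ± 0.426 CPM in the libraries labelled ZFP90 KO and 2.44 ± 0.819 CPM in the Control libraries (SD, n = 3 each). The log2 fold change of 0.49 was not called (SE 0.246; 95% interval -0.07 to 1.05; edgeR adjusted p = 0.191). Control replicate 2 was the lowest of the 6 libraries, and Control replicate 3 lay above replicate 2 labelled ZFP90 KO.

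MUC2, MUC5AC and MUC5B lie side by side with MUC6, the gland mucin of the stomach, within 249.4 kb of chromosome 11 (1012821 to 1262172, GRCh38, GENCODE release 29). MUC2 runs from 1074875 to 1110511, MUC5AC from 1157953 to 1201138 and MUC5B from 1223066 to 1262172, all on the plus strand, and MUC6 from 1012821 to 1036706 on the minus strand. MUC6, named here after its values were seen, had 29, 17 and 41 reads in the libraries labelled ZFP90 KO, against 54, 37 and 46 in the Control libraries. Its log2 fold change of -0.69 was not called (SE 0.281; 95% interval -1.33 to -0.06; edgeR adjusted p = 0.115), though it was called lower without Control replicate 2 (adjusted p = 0.0245) and with no filter on low counts (0.0236). The 4 neighbours thus had estimates on either side of 0. Mucin genes share repeats, and reads from near-identical stretches could have been left out of the counts.

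**Figure D2:**
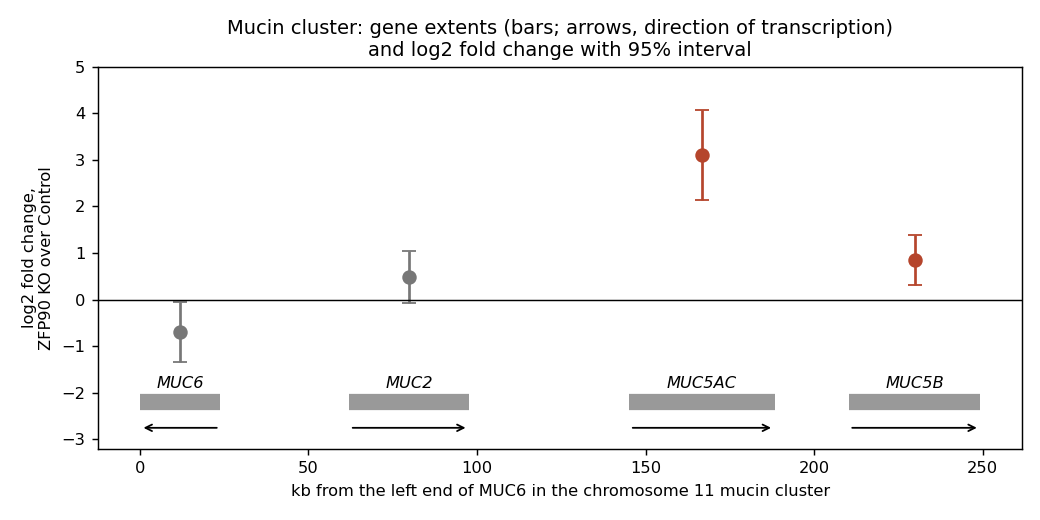
Extent of the 4 mucin genes of the chromosome 11 cluster (grey bars, in kb from the left end of MUC6; arrows give the direction of transcription) with each gene's log2 fold change, libraries labelled ZFP90 KO over Control (dots; bars are 95% intervals, not adjusted for the number of genes). The called genes MUC5AC at 3.10 and MUC5B at 0.84 are in red; MUC2 at 0.49 and MUC6 at -0.69 are in grey.

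FCGBP, a large protein of the mucus gel with repeated von Willebrand factor domains, had the most reads of the 10 and lies on chromosome 19 (39863323 to 39934626, minus strand, GRCh38). It had 398, 377 and 367 reads in the libraries labelled ZFP90 KO, against 297, 315 and 294 in the Control libraries. This gave 24.0, 26.7 and 24.0 CPM in the libraries labelled ZFP90 KO, against 18.3, 20.7 and 21.9 CPM in the Control libraries. The groups did not overlap, but the lowest library labelled ZFP90 KO lay close to the highest Control library. The fold change was 1.23 (log2 0.30, SE 0.091; edgeR adjusted p = 0.0486), at the edge of the threshold. The call was absent without any 1 library labelled ZFP90 KO (adjusted p = 0.106, 0.146 and 0.101 without replicates 1 to 3), without Control replicate 1 (0.161), with DESeq2 (0.0792), with upper-quartile scaling (0.0705), with library size alone (0.137) and with a filter at 1 CPM (0.0505). FCGBP held 65.2% to 70.9% of all reads of the 10 genes in the libraries labelled ZFP90 KO, and 66.1% to 70.8% in the Control libraries.

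The membrane-bound mucins, MUC1 on chromosome 1 (155185824 to 155192916) and MUC13 on chromosome 3 (124905442 to 124953819, both minus strand, GRCh38), were not called. MUC1 had 44, 34 and 42 reads in the libraries labelled ZFP90 KO, against 58, 49 and 44 in the Control libraries. Its levels of 2.66, 2.41 and 2.75 CPM in the libraries labelled ZFP90 KO all lay below the 3.58, 3.22 and 3.28 CPM of the Control libraries. The log2 fold change was -0.37 (SE 0.156; 95% interval -0.72 to -0.01; edgeR adjusted p = 0.13, and 0.106 to 0.371 over 16 other settings). The gene AL713999.1 overlaps MUC1 on the same strand, and reads where they overlap may have been left uncounted. MUC13 had 14, 16 and 12 reads in the libraries labelled ZFP90 KO and 16, 16 and 13 in the Control libraries. Its groups overlapped, at 0.922 ± 0.187 CPM in the libraries labelled ZFP90 KO and 1.00 ± 0.0435 CPM in the Control libraries (SD, n = 3 each). The log2 fold change of -0.13 had a 95% interval from -0.71 to 0.44 (edgeR adjusted p = 0.787), so that changes of up to about that size in either direction could not be told from none.

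Of the 4 tested members whose groups did not overlap, 3 (MUC5AC, MUC5B and FCGBP) were higher in the libraries labelled ZFP90 KO and 1 (MUC1) lower. The same was true, in these directions, of 20.9% and 20.3% of all genes tested. MUC5AC was tested only through the libraries labelled ZFP90 KO, where it is high, so this count too is a description. In bulk RNA, more cells with a transcript and more transcript per cell cannot be told apart.

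**Figure D3:**
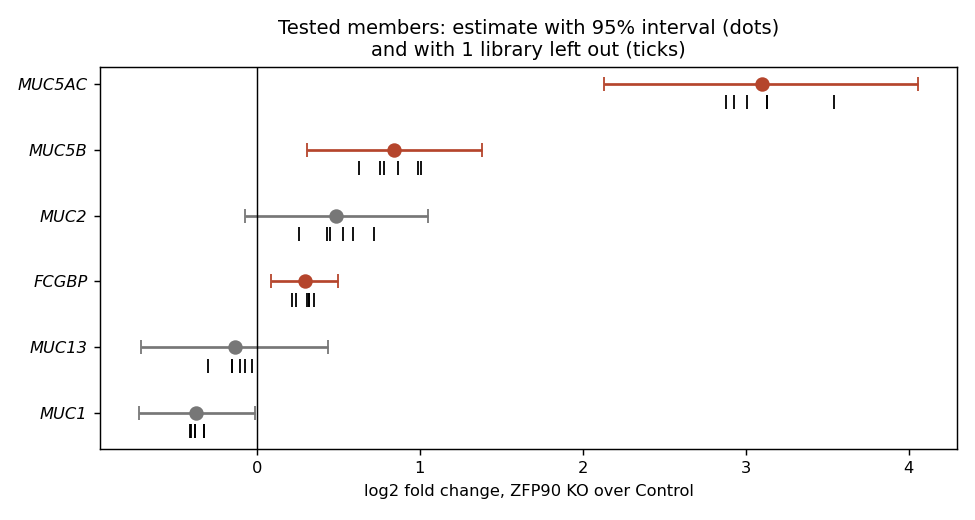
Log2 fold change of the 6 tested genes, libraries labelled ZFP90 KO over Control (dots; bars are 95% intervals from the fit of all 6 libraries, not adjusted for the number of genes; red, called), and the estimates with 1 library left out in turn (ticks). MUC5AC stays between 2.88 and 3.54 and MUC5B between 0.63 and 1.01, while FCGBP stays between 0.22 and 0.35.

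Levels of different genes were compared as CPM per kb of merged exons (GENCODE release 29, another annotation than that of the counts, so lengths are approximate). FCGBP stood highest, at 1.92 ± 0.121 CPM per kb in the libraries labelled ZFP90 KO and 1.57 ± 0.142 CPM per kb in the Control libraries (SD, n = 3 each). MUC1 followed, at 0.552 ± 0.0370 CPM per kb in the libraries labelled ZFP90 KO and 0.713 ± 0.0403 CPM per kb in the Control libraries, and its range did not meet that of FCGBP above it or of the gene below it in either group. In the libraries labelled ZFP90 KO, MUC2 (0.268), MUC13 (0.263), MUC5B (0.199) and SPDEF (0.124 CPM per kb) came next, and each overlapped its neighbour in this order. In the Control libraries MUC13 (0.287) stood apart above MUC2 (0.193), SPDEF (0.112) and MUC5B (0.110 CPM per kb), which overlapped in turn. MUC5AC was the lowest gene with reads in every library, at 0.0472 ± 0.00409 CPM per kb in the libraries labelled ZFP90 KO and 0.00529 ± 0.00283 CPM per kb in the Control libraries. The level of MUC2, the intestinal mucin, was thus below that of MUC1 in each group.

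**Figure D4:**
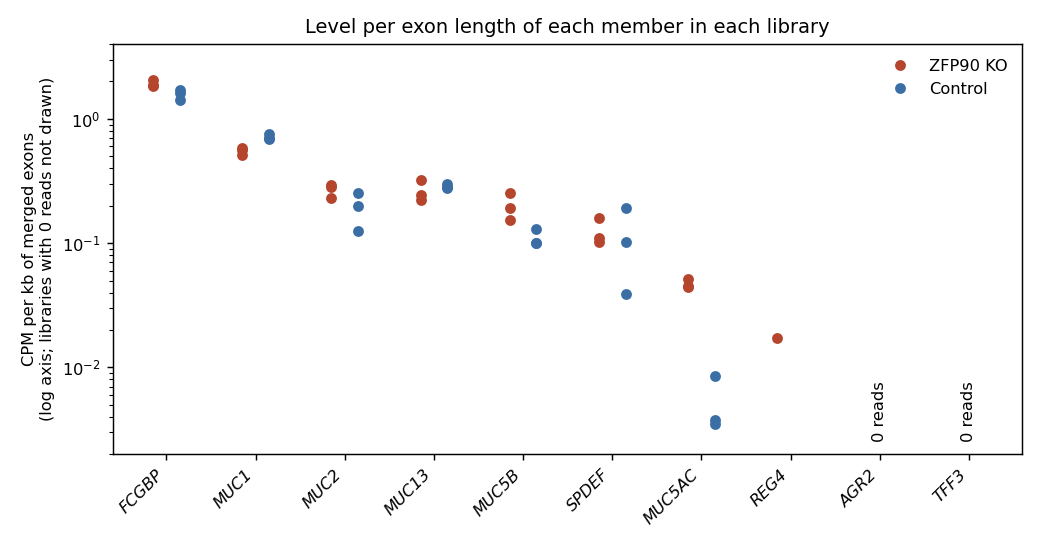
Level of each gene in CPM per kb of merged exons (vertical log axis) in each library labelled ZFP90 KO (red) and each Control library (blue), in order of the mean in the libraries labelled ZFP90 KO; libraries with 0 reads are not drawn. FCGBP is highest, with means of 1.92 CPM per kb in the libraries labelled ZFP90 KO and 1.57 CPM per kb in Control, MUC5AC separates most between the groups, and AGR2 and TFF3 have 0 reads.

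Likeness of pattern was described by Pearson's r of log2 CPM over the 6 libraries, which form 2 groups, so that any gene differing between the groups scores high. Closest to FCGBP were TAGLN3, ATP8B4 and GS1-259H13.2 (r = 0.995, 0.993 and 0.992), all low, at means of 0.791, 0.848 and 1.44 CPM. Closest to MUC5AC were RP11-89K21.1, PITPNM3 and IRGQ (r = 0.999, 0.997 and 0.996). MUC5AC itself had 1, 1 and 2 reads in the Control libraries and was tested only through the libraries labelled ZFP90 KO.

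Among 14 other mucins, 8 were tested, and 1 rose and 1 fell, with a median log2 fold change of 0.19. These counts stand beside shares of 9.73% called higher and 11.4% lower among all genes tested. This list and those below were chosen with earlier results of these data known, so their counts are descriptions. MUC19, a gel-forming mucin, rose to 4.59, 2.62 and 3.86 CPM in the libraries labelled ZFP90 KO, against 2.65, 1.05 and 1.12 CPM in the Control libraries (log2 fold change 1.18, SE 0.353; edgeR adjusted p = 0.0449). Its groups overlapped through Control replicate 1, and the call did not hold without Control replicate 3 or replicate 1 or 3 labelled ZFP90 KO (highest adjusted p = 0.166). MUC4, a membrane-bound mucin, fell to 4.35, 5.46 and 3.93 CPM in the libraries labelled ZFP90 KO, against 6.11, 6.91 and 6.27 CPM in the Control libraries (log2 fold change -0.49, SE 0.153; edgeR adjusted p = 0.0498). Its call was absent with DESeq2 (adjusted p = 0.0854), with RLE scaling (0.0503) and without any 1 library other than replicate 2 labelled ZFP90 KO (highest 0.16). Of the other goblet cell products only ZG16B and SMIM6 were tested, and neither was called; edgeR, DESeq2 and limma-voom called 0 in either direction, as did edgeR at an unadjusted p under 0.05.

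**Figure D5:**
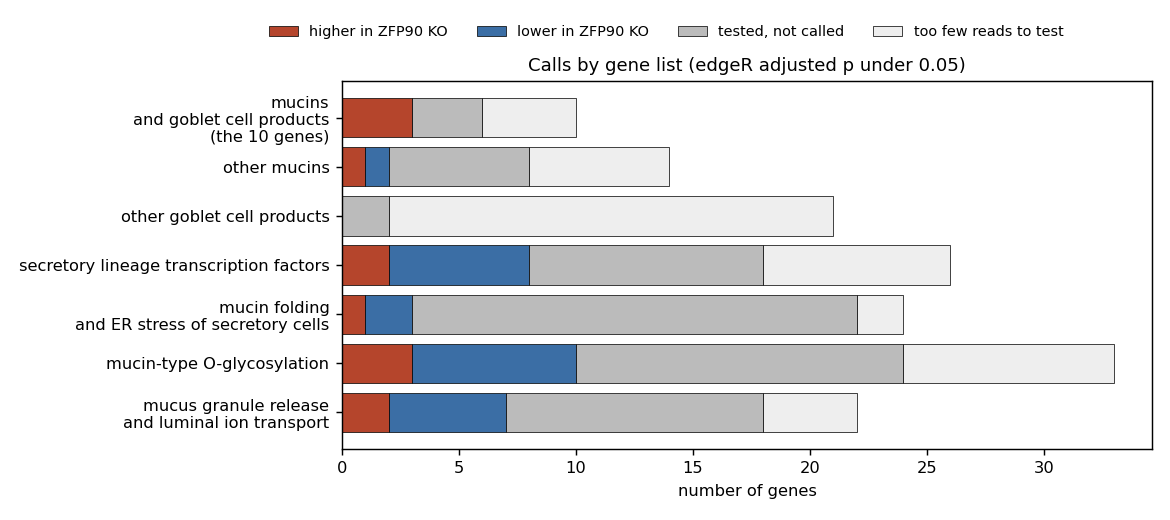
Number of genes (horizontal axis) in each list that were called higher or lower in the libraries labelled ZFP90 KO than in Control (edgeR adjusted p under 0.05), were tested and not called, or had too few reads to be tested. The 10 mucins and goblet cell products have 3 higher and 0 lower, and the 26 transcription factors 2 higher and 6 lower. All lists were chosen with earlier results of these data known, so the counts are descriptions. Among all genes tested, 9.73% were called higher and 11.4% lower.

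Of 26 transcription factors of the secretory and intestinal lineages, 18 were tested, and 2 rose and 6 fell, with a median log2 fold change of -0.16. For all genes tested the shares were 9.73% higher and 11.4% lower. GATA6, a factor of gut endoderm, fell to 2.08 ± 0.422 CPM in the libraries labelled ZFP90 KO, against 4.81 ± 0.507 CPM in the Control libraries (SD, n = 3 each; log2 fold change -1.21; edgeR adjusted p = 0.00291). SOX9, a factor of crypt progenitors, was 62.1, 63.8 and 77.0 CPM in the libraries labelled ZFP90 KO and 127, 127 and 131 CPM in the Control libraries. RUNX1 fell by 0.92 on the log2 scale (edgeR adjusted p = 0.000131). The epithelial ETS factor EHF fell by 0.73 and CREB3L4, a membrane-bound factor of secretory cells, by 0.66 on the log2 scale (adjusted p = 0.000681 and 0.00454). None of these 5 calls was lost with 1 library left out. The 2 that rose were KLF4, a factor of goblet cell differentiation, and HNF4A, a nuclear receptor of gut epithelium. KLF4 was 206, 197 and 186 CPM in the libraries labelled ZFP90 KO, against 154, 112 and 156 CPM in the Control libraries, and the groups did not overlap (log2 fold change 0.48, SE 0.114; edgeR adjusted p = 0.0181). It lies on chromosome 9, where Control replicate 2 was low, and without that library its log2 fold change was 0.34 and still called (adjusted p = 9.72e-05), whereas the call did not hold without replicate 1 or 2 labelled ZFP90 KO (0.079 and 0.0559). HNF4A was 10.9, 10.8 and 10.7 CPM in the libraries labelled ZFP90 KO and 7.53, 7.90 and 7.54 CPM in the Control libraries (log2 fold change 0.50, SE 0.097; edgeR adjusted p = 0.00824), and its call held with each library left out.

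Genes that build the sugar chains of mucins moved in both directions. Of 33, 24 were tested, and 3 rose and 7 fell, with a median log2 fold change of 0.05. Again, 9.73% of all genes tested were called higher and 11.4% lower. Because the list was chosen with earlier results of these data known, its counts only describe it. B3GALT5, a galactosyltransferase, was 7.01, 7.59 and 5.82 CPM in the libraries labelled ZFP90 KO, against 38.1, 43.6 and 34.2 CPM in the Control libraries (log2 fold change -2.51, SE 0.126; edgeR adjusted p = 8.5e-06). GALNT5, which adds the first sugar of the chain, was 2.96, 4.26 and 4.97 CPM in the libraries labelled ZFP90 KO and 15.7, 18.2 and 14.2 CPM in the Control libraries (log2 fold change -1.99; edgeR adjusted p = 0.000166). GALNT12, of the same family, and the sialyltransferase ST3GAL1 fell by 0.78 and 0.53 on the log2 scale (edgeR adjusted p = 0.0018 and 0.00859). For both, Control replicate 2 was the lowest Control library. It stood at 53.3 CPM for GALNT12, against 70.2 and 63.7 CPM in Control replicates 1 and 3. For ST3GAL1 it stood at 26.1 CPM, against 33.1 and 32 CPM. ST6GALNAC2, another sialyltransferase, rose to 29.9 ± 4.05 CPM in the libraries labelled ZFP90 KO, against 12.3 ± 0.474 CPM in the Control libraries (SD, n = 3 each; log2 fold change 1.28; edgeR adjusted p = 0.000126). The groups of these 5 genes did not overlap, and their calls held with each library left out. Without Control replicate 2, 5 of the list rose, and without replicate 3 labelled ZFP90 KO 1 rose.

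For granule release and luminal ion transport, 18 of 22 genes were tested, and 2 rose and 5 fell, with a median log2 fold change of -0.12. The shares over all genes tested were 9.73% higher and 11.4% lower. RAB27B, RAB27A and RAB3D, small GTPases of secretory granules, fell by 1.05, 0.59 and 0.73 on the log2 scale (edgeR adjusted p = 0.0177, 0.0491 and 0.0007). The RAB27B call did not hold without Control replicate 1 or replicate 1 or 2 labelled ZFP90 KO (highest adjusted p = 0.0755), nor that of RAB27A without Control replicate 3 or any 1 library labelled ZFP90 KO (highest 0.168) or with limma-voom (0.0523). KCNN4, a calcium-activated potassium channel, was 39.1, 39.7 and 38.8 CPM in the libraries labelled ZFP90 KO and 67.5, 72.7 and 67.2 CPM in the Control libraries (log2 fold change -0.82; edgeR adjusted p = 4.11e-05). SYTL2, which binds RAB27 proteins, rose to 38.9, 30.4 and 44.7 CPM in the libraries labelled ZFP90 KO, against 20.3, 16.7 and 24.2 CPM in the Control libraries (log2 fold change 0.90; edgeR adjusted p = 0.00553). Over this list 1 rose without replicate 1 or 3 labelled ZFP90 KO, and 3 fell without replicate 1 or 2 labelled ZFP90 KO.

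Genes of protein folding in secretory cells were tested in 22 of 24 cases, and 1 rose and 2 fell, with a median log2 fold change of -0.05. Beside this, 9.73% of all genes tested were called higher and 11.4% lower. XBP1, a transcription factor of the unfolded protein response, rose by 0.21 on the log2 scale (SE 0.047; edgeR adjusted p = 0.0139). It was not called without Control replicate 1 or replicate 1 labelled ZFP90 KO (highest adjusted p = 0.0672) or with library size alone (0.126). ERO1LB, an oxidase of disulfide formation, fell by 0.45 and SEC24D, a coat protein of vesicles leaving the endoplasmic reticulum, by 0.25 on the log2 scale (adjusted p = 0.0126 and 0.0132). ERO1LB was not called without replicate 1 or 3 labelled ZFP90 KO (highest adjusted p = 0.0602), nor SEC24D without replicate 3 labelled ZFP90 KO (0.0557). The AGR2 relative AGR3 had 0 reads throughout.

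Markers of other gut cell types were measured beside these changes. The counts given below stand beside 9.73% called higher and 11.4% lower among all genes tested. Of 8 gastric markers 3 were tested, and 1, the annexin ANXA10, rose. It was 127, 125 and 134 CPM in the libraries labelled ZFP90 KO, against 14.8, 12.8 and 17.5 CPM in the Control libraries. Its log2 fold change was 3.10 (edgeR adjusted p = 1.1e-06). ANXA10 made up nearly all of the summed level of this list, 127 to 138 CPM in the libraries labelled ZFP90 KO and 15.9 to 21.9 CPM in the Control libraries. The other tested markers, the gland mucin MUC6, with its estimate below 0, and CLDN18, were not called. CLDN18 was 0.825 ± 0.253 CPM in the libraries labelled ZFP90 KO and 0.833 ± 0.350 CPM in the Control libraries (SD, n = 3 each). TFF2 and VSIG1, too low to be tested, had 6 and 7 summed reads in the libraries labelled ZFP90 KO and 1 and 7 in the Control libraries. TFF1, GKN1 and GKN2 were at 0. Enterocyte markers summed to 19.4 to 24.9 CPM in the libraries labelled ZFP90 KO and 13.2 to 17.6 CPM in the Control libraries, with 3 of 12 tested, 1 higher (the keratin KRT20, at 7.35 ± 1.79 CPM in the libraries labelled ZFP90 KO and 1.33 ± 0.296 CPM in the Control libraries; SD, n = 3 each) and FABP1, FABP2 and SI at 0. Enteroendocrine markers summed to 55.0 to 58.5 CPM in the libraries labelled ZFP90 KO and 41.0 to 47.9 CPM in the Control libraries (2 of 10 tested, 1 higher), with SST, GCG and SCGN at 0. Most of this sum was the granin SCG2, at 51.0 ± 2.08 CPM in the libraries labelled ZFP90 KO and 38.9 ± 3.52 CPM in the Control libraries (SD, n = 3 each; log2 fold change 0.39; edgeR adjusted p = 0.00832). The hormone PYY and the granins CHGA and CHGB, too low to be tested, had 12, 16 and 0 summed reads in the libraries labelled ZFP90 KO and 32, 30 and 7 in the Control libraries. Intestinal stem cell markers summed to 70.0 to 78.0 CPM in the libraries labelled ZFP90 KO and 84.3 to 91.2 CPM in the Control libraries (4 of 8 tested, 1 higher and 3 lower), with ASCL2 and OLFM4 at 0. Most of this sum was EPHB2 and RGMB, at means of 31.1 and 29.7 CPM in the libraries labelled ZFP90 KO. Their means in the Control libraries were 38.7 and 36 CPM. EPHB2, RGMB and LRIG1 were called lower and AXIN2 higher (log2 fold change 0.72). LGR5, too low to be tested, had 8 summed reads in the libraries labelled ZFP90 KO and 10 in the Control libraries. Tuft cell markers summed to 5.96 to 7.33 CPM in the libraries labelled ZFP90 KO and 8.36 to 11.3 CPM in the Control libraries (2 of 6 tested, 1 lower). Paneth cell markers were below 1 CPM in every library, with 0 of 6 tested and the defensins DEFA5 and DEFA6 at 0. Leukocyte markers summed to 2.84 to 3.40 CPM in the libraries labelled ZFP90 KO and 5.12 to 5.75 CPM in the Control libraries (1 of 8 tested, 1 lower), with CD3E at 0. The gene called lower was CD4, at means of 1.55 CPM in the libraries labelled ZFP90 KO and 3.83 CPM in the Control libraries. PTPRC had 1 read in all. Fibroblast and endothelial markers summed to 76.0 to 97.6 CPM in the libraries labelled ZFP90 KO and 75.5 to 96.3 CPM in the Control libraries (5 of 9 tested; edgeR called 0, also at an unadjusted p under 0.05), with PECAM1 at 0. Most of this sum was the collagen COL1A1, at means of 74.3 CPM in the libraries labelled ZFP90 KO and 73.9 CPM in the Control libraries. DCN, LUM, PDGFRB, VWF and CDH5 were each below 1 CPM in every library. The part of these other markers in the changes of the mucins was not tested.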

How the data were processed

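HCT116 RNA was sequenced in 3 libraries labelled ZFP90 KO and 3 Control libraries, with a TruSeq RNA kit and 1 µg of RNA each, per the labels' protocols. Each library has its own deposited table of unnormalized read counts by gene symbol. TopHat2 2.0.11 and HTSeq, with hg19 and GRCh37, are named in the submitters' processing notes; the strand setting is not given in the sources used here. The 5 summary lines per table held 31.7% to 32.37% of listed reads and were left out.

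Counts were tested with edgeR 4.0.16 (R 4.3.3; quasi-likelihood test, TMM, filterByExpr with minimum count 10 and minimum total 15), adjusted by Benjamini-Hochberg over 16369 genes. CPM used TMM-scaled library sizes over tested genes. The edgeR test was also run on simulated data for this comparison (5 simulations, 16315 to 16352 genes tested). It recovered 67.8% of 1.5-fold, 90.4% of 2-fold and 100% of 4-fold changes. Of its calls there, 7.68% were false, which is more than the adjusted p threshold allows for. Changes were seeded in 200 genes per simulation, all with more reads than MUC5AC, MUC13 or SPDEF. The rates were not split by read count either, and do not give the recovery for genes as low as these 3. In the deposited libraries 3454 genes were called, and the low chromosomes of Control replicate 2 were not simulated. The rates may therefore not hold for these data. Also tried were DESeq2 1.42.0, limma-voom (limma 3.58.1), 3 other scalings, 2 other filters, a stricter threshold, the replicate number as a block, each library left out, and a per-chromosome offset for Control replicate 2.

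The genes and lists were chosen with earlier results of these data known. Named were the 10 genes, up to 5 called genes per list by size of change, and 3 genes most like the most abundant and the most changed tested gene; MUC6, KLF4, HNF4A and the cell type markers given with values were named after their values were seen. No replicate pair agreed within sampling noise (chi-square per degree of freedom 2.2 to 19.83).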

Additional observations from a re-analysis of the deposited data

How the results depend on the processing

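With 1 library left out in turn, the 10 genes had 1 to 3 called higher and 0 lower, and all genes 756 to 2261 higher and 1025 to 2361 lower, the highest without Control replicate 2. Of the 10 genes, 1 was called higher at adjusted p under 0.01 (MUC5AC), and 1 with at least 1 CPM in 3 libraries (MUC5B; MUC5AC and MUC13 were then not tested). All genes called higher numbered 986 with library size only, 618 at adjusted p under 0.01 and 2407 with the chromosome offset for Control replicate 2; 869 were lower at adjusted p under 0.01. The cause was not tested, except that a stricter threshold calls fewer by construction. MUC5AC stayed called in all 15 settings in which it was tested (log2 fold change 2.84 to 3.54), and MUC5B in 11 of 16 and FCGBP in 7 of 16. In the main fit MUC5AC was tested only through the libraries labelled ZFP90 KO, so its calls are a description. No value of the 6 tested genes changed sign. Same-numbered libraries shared little: the correlations of their deviations were 0.049, 0.145 and 0.093, each higher than with any other number, a hint from the data only. With the replicate block, 3 of the 10 genes were higher and 0 lower, and 1623 and 1840 of all genes. Below 10 reads in each library were 4 genes, SPDEF included, against 3 over all libraries together. Depth limits the low genes: at 0 to 16 reads a library, as for MUC5AC, SPDEF and MUC13, counting error is large.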
